A study of Apis mellifera ligustica with 12 samples.

Results

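Of the 1350 miRNAs listed in the brain libraries of Apis mellifera ligustica, the Italian honeybee, 246 were predictions. These are small RNAs that were assigned to neither the honeybee nor the other-species entries of miRBase, the public miRNA catalogue, and that lay in genome stretches able to fold into a hairpin. All entries whose identifiers carry the authors' class name for predictions were taken, without regard to their values. They are written here by number and arm, so that m0021-3p is the 3p arm of predicted hairpin 21, and the class name is left out. The other listed entries were 180 known honeybee miRNAs and 924 miRNAs known from other species.

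The study asked how brain miRNAs differ at several times after the start of treatment with fluvalinate, a pyrethroid used in hives against Varroa mites. Each of 12 libraries was made from pooled worker brains. CK was the untreated group, and X1D10, X1D20 and X1D30 were sampled 10, 20 and 30 days into treatment with fluvalinate strips, with 3 libraries in each group. All came from the same subspecies and tissue, and no library of untreated bees was taken at the 3 later dates, so an effect of treatment and one of sampling date cannot be told apart. Whether the CK bees came from the study's control colonies is not stated in the sources used here. By the paper's methods, a pool held brains of a single colony, and each colony was sampled at every time. Which colony gave which library is not stated in the sources used here. Libraries of different times may thus come from the same colony, and the tests treated them as independent. The 3 libraries of a group may share a hive set, and p-values then measure only the spread between these libraries.

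The libraries held 8454313 to 15979901 counts on listed miRNAs, and 3 counts corresponded to 0.188 to 0.355 CPM (counts scaled to a library total of 1e+06). The neuronal markers miR-124-3p, miR-137-3p, miR-1000-5p and miR-932-5p had median levels, in the deposited TPM (tags scaled like CPM), of 18423, 4535, 15.3 and 8667. The muscle markers miR-1-3p and miR-133-3p had 1260 and 2275 TPM, and the compound eye markers miR-7-5p and miR-210-3p 2262 and 954 TPM, so markers of tissue beside the brain were also counted. None of these 8 markers was at 0 in any library. The summed eye markers ran from 3612 to 3807 TPM in CK, above the 2768 to 2990 TPM of X1D10, the 2798 to 3582 TPM of X1D20 and the 3264 to 3415 TPM of X1D30, without overlap. The eye markers went opposite ways. miR-7-5p averaged 2897 TPM in CK and 1930, 2203 and 2185 TPM in X1D10, X1D20 and X1D30. miR-210-3p averaged 784 TPM in CK and 958, 1009 and 1157 TPM in X1D10, X1D20 and X1D30. The summed muscle markers ran from 3869 to 4637 TPM in CK, 3049 to 3978 in X1D10, 2981 to 3591 in X1D20 and 3127 to 5036 in X1D30. Of these, miR-1-3p averaged 1866 TPM in CK and 1469, 1067 and 1044 TPM in X1D10, X1D20 and X1D30. For miR-133-3p the means were 2332 TPM in CK and 2150, 2207 and 2798 TPM in X1D10, X1D20 and X1D30. The part of these differences in the comparisons with CK was not tested. One library stood apart: 479 miRNAs of other species were counted in X1D30-3, against 180 to 269 in the other libraries. The predicted miRNAs did not share this, with 191 counted in X1D30-3, 170 to 201 in the other libraries and 0 counted in X1D30-3 only.

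A miRNA is cut from a folded precursor. Drosha releases the hairpin in the nucleus, Dicer cuts off its loop, and one strand of the resulting duplex, from the 5p or the 3p arm, is usually loaded into Argonaute while the other is degraded. The bases after the first, called the seed, pair with target mRNAs, so that a shift of the 5′ end gives a molecule with another seed. Predictions from sequencing alone can therefore hold true new hairpins, end variants of known miRNAs (isomiRs), miRNAs known from other species, transcripts of the opposite strand, and fragments of other RNAs.

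The sequences below are written 5′ to 3′ as the files give them, with T for U and with the seed, bases 2 to 8, in capitals. The first set shows the 2 most counted predicted miRNAs beside the listed miRNA of another species that each one overlapped, since these hold most of the counts.

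m0021-3p: tCTCACTAtcttgtctttcatc
miR-71-y: tCTCACTAtcttgtctttcat
m0200-5p: cTTTGGTAatatagctctatga
miR-79-x: cTTTGGTAatatagctctatgaga

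m0021-3p was miR-71-y with 1 further base at its 3′ end, and m0200-5p lacked the last 2 bases of miR-79-x. Both pairs had the same seed. The second set shows predicted miRNAs beside the known honeybee miRNA that they overlapped, chosen to show each kind of shift: the same start and a longer 3′ end, a start 3 bases upstream, and a start 4 bases downstream.

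m0082-5p: tGGCAGTGttgttagctggttgtgt
ame-miR-34-5p: tGGCAGTGttgttagctggttg
m0184-3p: gTGAGCAAagtttcaggtgtgtg
ame-miR-87-3p: gTGAGCAAagtttcaggtgt
m0164-3p: tAGTCAGTctttttctctctcct
ame-miR-14-3p: tCAGTCTTtttctctctccta
m0138-3p: tCACATCAcaggcagagttct
ame-miR-11-3p: cATCACAGgcagagttctagtt
m0125-5p: cGTAGATCcgaacttgtgggct
ame-miR-100-5p: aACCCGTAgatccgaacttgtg

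Only the pairs with the same start had a common seed. The third set shows m0195-3p, whose seed is that of the miR-2 family while the rest of its sequence differed.

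m0195-3p: tATCACAGcaagagttcctccga
ame-miR-2-3p: tATCACAGccagctttgatgagc
ame-miR-2944-3p: tATCACAGcagtagttacctggt

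The fourth set shows both arms of hairpin m0010 beside the reverse complements of the arms of miR-281, which they matched.

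m0010-5p: aGAGAGCAactccatgacagtgt
ame-miR-281-3p, reverse complement: acaaagagagcaactccatgaca
m0010-3p: tACTGTCGatggatagctctct
miR-281-x, reverse complement: actgtcgatggatagctctctt

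The last set shows the sequence that 6 predicted entries had in common, and predicted miRNAs without an overlap to a listed one that recur in the comparisons of groups.

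m0018-5p, m0072-5p, m0087-5p, m0107-5p, m0148-5p and m0191-5p: cACGCGGAaagactcgggttcga
m0121-5p: cCGGATGAggtcttcatcgacc
m0184-5p: aCGCCTGAaatttgctttttacct
m0194-5p: tGTCGTGAcactcgtggcggtc
m0088-5p: tGACTGCCaagtttgccgctct

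The 246 entries came from 221 hairpins. Both arms were listed for 25 hairpins, only the 5p arm for 89 and only the 3p arm for 107, which gives 114 entries of the 5p and 132 of the 3p arm. They were 20 to 25 nt long with a median of 22 nt, and 90.7% were 21 to 23 nt long, against 84.4% of the known honeybee and 54.0% of the other-species entries. Their GC content had a median of 54.5%, against 47.7% for known honeybee miRNAs.

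The first base of a miRNA is often U, which Argonaute favours. It was U (T in the files) in 117 predicted miRNAs, or 47.6%, against 56.1% of the known ones. On the 5p arm the share was 35.1% for predicted and 42.9% for known miRNAs, and on the 3p arm it was 58.3% for predicted and 67.7% for known miRNAs. Weighted by counts, 60.7% of the predicted and 68.3% of the known honeybee reads began with U. The 5p arm took 39.8% of the counts on predicted miRNAs but 12.4% of those on known ones. Both count-weighted shares of the predicted miRNAs lean on m0021-3p, a 3p entry that begins with U and held 45.4% of their counts. The shares without it are not reported here. These shares describe 1 list each and were not tested.

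The predicted miRNAs were numerous but rare. They drew 195641 counts over the 12 libraries, and the median entry had 54 counts in all, against 2005 for known honeybee miRNAs and 4 for miRNAs of other species. At least 1 count was found for 245 entries, at least 10 for 236, at least 100 for 81 and at least 1000 for 15. Detection was nevertheless wide, with 100 entries counted in all 12 libraries and 2 counted in a single library. The smallest count above 0 in any library was 2.

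**Figure D1:**
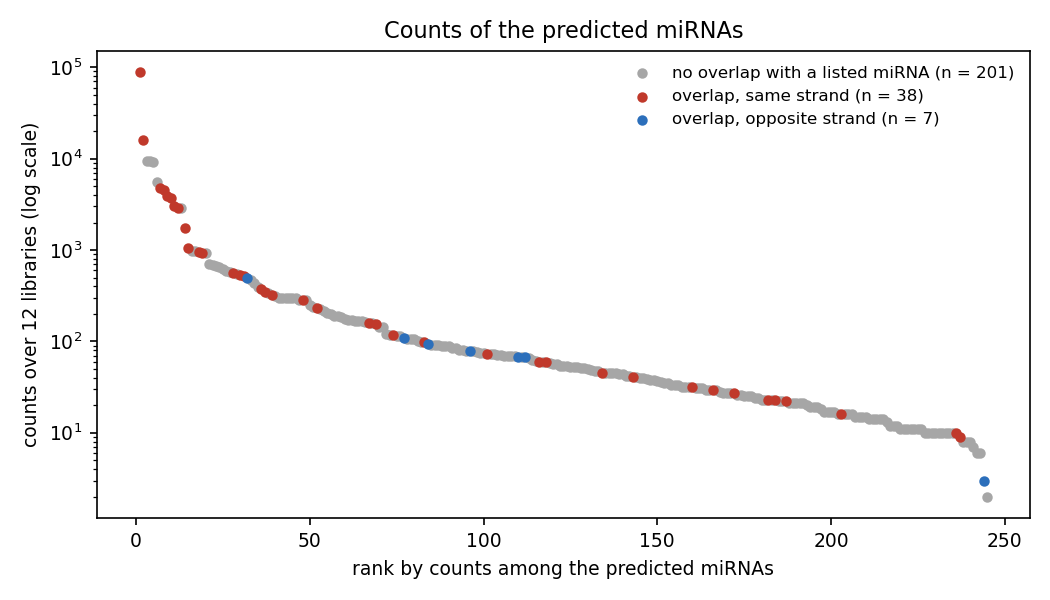
Counts of each predicted miRNA over the 12 libraries (log scale) against its rank, coloured by overlap with a listed miRNA; 1 entry without counts is not drawn. The top entry has 88839 counts, and of the 20 highest points 12 overlap a listed miRNA on the same strand.

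A single entry, m0021-3p, held 45.4% of all counts on predicted miRNAs. The top 5 held 67.8%, the top 10 held 79.4% and the top 50 held 94.4%. Even so, 60 listed miRNAs, 52 of them known honeybee ones, had more counts than m0021-3p, and the next predicted entry, m0200-5p, ranked 102 among all listed miRNAs.

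The spread among the libraries was smaller for the more abundant entries. The coefficient of variation of CPM over the 12 libraries had a median of 89.2% for the 152 tested predicted miRNAs with 10 to 99 counts, 35.0% for the 66 with 100 or more but under 1000, and 14.9% for the 15 with 1000 or more. The medians for known honeybee miRNAs in the same ranges were 84.1%, 32.4% and 23.1%. The last of these covers the 49 with 1000 or more but under 1e+05 counts and leaves out the more abundant known miRNAs.

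Most reads on predicted miRNAs came from sequences close to a listed miRNA. An overlap was counted where at least 16 bases aligned with at most 1 mismatch. By this rule 38 of the 246 entries overlapped a listed miRNA on the same strand, 20 of them a known honeybee and 33 an other-species entry. These 38 held 136533 counts, which is 69.8% of all counts on predicted miRNAs, and 6 of the top 10 were among them. Of the 136533 counts, 88839 were on m0021-3p alone, so the share rests largely on 1 sequence. The 20 with a known honeybee partner held 7.24%. No overlap on either strand, to a listed miRNA or to another prediction, was found for 183 entries, some of which still had the seed of a listed miRNA. Under a stricter rule, chosen after the data were seen, of at least 18 bases and no mismatch, 34 entries overlapped.

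m0021-3p and miR-71-y differed by 1 base in length, and the longer form was the larger one. miR-71 is conserved among invertebrates, and its role in lifespan and stress resistance in Caenorhabditis elegans is not assigned here to this 3p form. The predicted form took between 79.8% and 88.1% of the joint counts of the pair in the 12 libraries. m0200-5p had 15969 counts, whereas miR-79-x, which it matched over 22 bases, had 0. m0007-3p had 4745 counts, against 4 for miR-6039-y, which differed from it by 1 mismatch. m0037-5p had 3756 counts and miR-981-x 32. Thus several of the most counted predictions were near-exact forms of miRNAs listed from other species with few or no counts.

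The 20 entries that overlapped known honeybee miRNAs each had an end 3 or more bases from that of the known form, and 0 had both ends closer. The start lay 3 or more bases upstream in 10, exactly 3 in 9 of them. It lay 3 or more bases downstream in 4 and under 3 bases away in 6, of which 3 had the same start and 3 extra bases at the 3′ end. The predicted form was mostly the minor one: its share of the joint counts with its known partner had a median of 0.214% and ran from 0.00159% for m0190-3p, the partner of bantam-3p, to 40.2% for m0196-3p, the partner of miR-3478-3p.

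**Figure D2:**
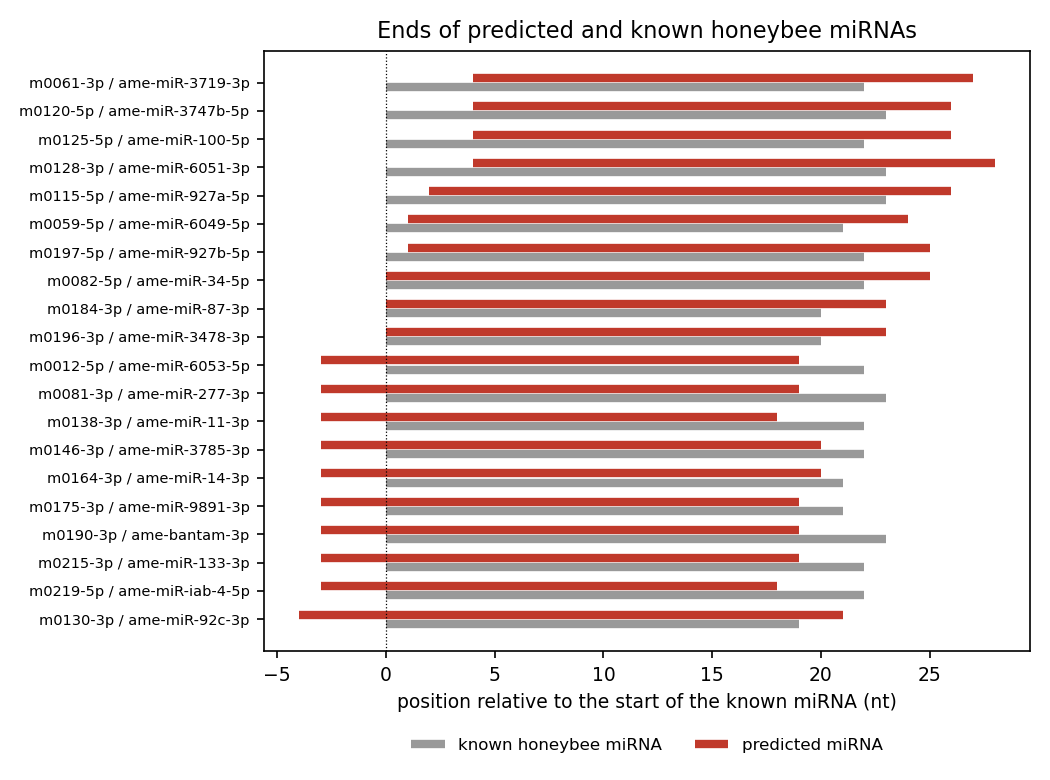
Position in nt of 20 predicted miRNAs (red) relative to the start of the known honeybee miRNA that each overlapped (grey), in order of the shift. Starts lie 3 or more bases upstream in 10 pairs and downstream in 4, and 3 pairs have the same start.

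miR-14-3p, which in Drosophila acts in cell death and metabolism, had 4085834 counts, and m0164-3p, which started 3 bases upstream of it, had 3020. miR-11-3p had 2589233 counts, against 1723 for m0138-3p with the same upstream shift. miR-100-5p had 1396508 counts, against 944 for m0125-5p, which started 4 bases downstream. A closer pair was m0128-3p with 1054 counts and miR-6051-3p with 1875.

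miR-34-5p is known from Drosophila for its role in brain ageing. Its predicted longer form m0082-5p took 1.99%, 1.02% and 0.942% of their joint counts in X1D10, 1.02%, 0.926% and 0.977% in X1D20 and 1.41%, 1.36% and 1.17% in X1D30, against 1.86%, 1.80% and 1.87% in CK. The X1D20 and X1D30 libraries all lay below the CK libraries, and X1D10-1 lay above them. Of the joint counts with miR-34-x, m0082-5p took 18.1%, 18.6% and 20.2% in X1D20 and 20.7%, 20.1% and 19.3% in CK, which overlap. X1D10 and X1D30, at most 17.6% and 18.8%, lay below CK there. How often such separation occurs among all pairs was not counted. In the Amel_HAv3.1 genome assembly Mir34 lies at LG5:7064058-7064157, within the span of the protein-coding gene LOC102655904. LG is a linkage group, the honeybee's name for a chromosome. m0082-3p from the other arm of the same predicted hairpin overlapped miR-34-y, so both arms of hairpin m0082 matched miR-34.

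Opposite-strand matches were fewer and rarer. By the same overlap rule 7 predicted miRNAs were antisense to a listed miRNA, 5 of them to a known honeybee one, and they had 908 counts together. The largest was m0010-5p with 491 counts, which matched the complement of miR-281-3p over 19 bases, while m0010-3p, with 78 counts, matched that of miR-281-x. Mir281 lies at LG1:20557512-20557614 within the span of the long non-coding RNA gene LOC113218663. m0206-5p, with 93 counts, was antisense both to miR-3478-3p and to m0196-3p, the longer form of that miRNA. Mir3478 lies at LG15:1859783-1859860 within the span of LOC409485. The remaining antisense entries were m0171-3p to miR-9895-3p, m0050-5p to miR-6047a-3p, m0026-5p to miR-6065-3p and m0174-3p to miR-995-x.

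Some entries shared reads. In 4 cases predicted entries had the same whole sequence, 12 entries in all, and their counts were equal in every library. The sequence of m0018-5p stood in 6 entries with 295 counts each. Counting each sequence once left 238 sequences and 194039 counts, so 1602 counts were entered more than once.

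Seeds were mostly separate. The 246 entries had 234 different seeds. The seed of a known honeybee miRNA was found in 9 and that of any listed miRNA in 28. m0195-3p, with 698 counts, had the seed ATCACAG of miR-2-3p, miR-13a-3p, miR-13b-3p, miR-11-3p and miR-2944-3p, a family that in Drosophila represses genes of cell death. m0205-5p, with 171 counts, had the seed of miR-9a-5p, which in Drosophila keeps sensory precursor cells in check. The seed ACGCGGA occurred in 10 predicted entries, among them the 6 of 1 sequence.

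Of the 25 hairpins with both arms, the 5p arm had more counts in 10 and the 3p arm in 15. The larger arm exceeded the smaller by a median of 4.79 times, by 10 times or more in 6 and by less than 2 times in 8. The same arm was the larger in all 12 libraries for 12 hairpins, whereas each arm was the larger in at least 1 library for 10. The predicted pairing energy of the 2 arms had a median of -19.1 kcal/mol and ran from -36.8 to -12.3. The prediction of the hairpins had already required pairing, so this is no separate evidence. An arm of 8 of the 25 overlapped a listed miRNA on the same strand, and both arms did in 3.

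The 6 hairpins with the most counts on both arms show the range. m0061 had 5576 counts on the 5p and 928 on the 3p arm, which overlapped miR-3719-3p. m0082, the miR-34 match, had 4585 on the 5p and 60 on the 3p arm. m0146, which matched miR-3785 on both arms, had 3885 and 160.

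The other 3 were smaller. m0128 had 15 counts on the 5p and 1054 on the 3p arm, and m0137 had 11 and 977. m0184 was more even, with 657 and 351, and its 5p arm was the larger in 9 of 12 libraries. The larger arm of m0061, m0082, m0146, m0128 and m0137 was the same in all 12 libraries.

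The predicted class as a whole was compared between treated and CK libraries by 4 measures, with p-values adjusted over them (Benjamini-Hochberg). The share of listed counts that fell on predicted miRNAs was 0.128%, 0.123% and 0.133% in X1D10, 0.128%, 0.125% and 0.123% in X1D20 and 0.118%, 0.134% and 0.121% in X1D30, against 0.146%, 0.122% and 0.136% in CK. The treated libraries averaged 0.126% and the CK libraries 0.135%, a difference of -0.00860 percentage points (two-sided exact permutation test over 220 assignments, p = 0.1, adjusted p = 0.2). The groups overlapped, and among the 4 groups the exact permutation test over 369600 assignments gave p = 0.463. Without m0021-3p the difference had the other sign, 0.00185.

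At equal depth, with each library thinned to the total of CK-1, 182.6 predicted miRNAs were expected to be counted in treated and 184.5 in CK libraries (exact permutation p = 0.723). Their 5p share of counts averaged 40.7% in treated and 36.4% in CK libraries, a difference of 4.28 percentage points (exact permutation p = 0.0682, adjusted p = 0.2). The 4 group means were 36.4 ± 2.01% in CK, 42.5 ± 4.82% in X1D10, 38.2 ± 0.477% in X1D20 and 41.5 ± 3.12% in X1D30 (SD, n = 3 each). The X1D30 libraries, at 45.0%, 40.6% and 38.9%, all lay above those of CK, at 34.6%, 38.6% and 36.2%, while X1D10 and X1D20 overlapped CK. The highest library was X1D10-2 with 47.7%, in which 2461 of 15976 predicted counts were on m0121-5p. The 3p entry m0021-3p held 45.4% of all predicted counts and was lower in X1D30 than in CK without overlap. The higher 5p share of X1D30 is thus not separate from that lower level. The 5p share without m0021-3p is not reported here. The mean read length was 22.17 nt in treated and 22.19 nt in CK libraries (exact permutation p = 0.536), and the X1D20 libraries, at most 22.1773 nt, lay just below those of CK, at least 22.1775 nt. None of the 4 measures passed the test.

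**Figure D3:**
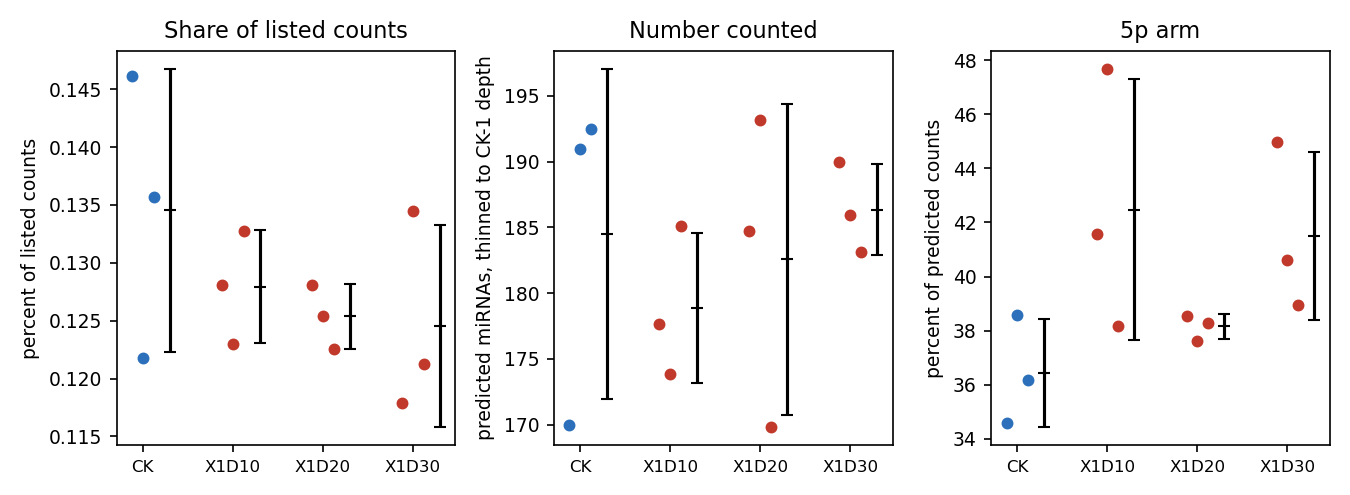
Share of listed counts on predicted miRNAs (percent), number of predicted miRNAs counted after thinning to the depth of CK-1, and 5p share of predicted counts (percent) for the 12 libraries by group, with the mean and SD of each group (n = 3); the vertical axes do not start at 0. The treated groups (red) overlap CK (blue), except X1D30 in the 5p share, whose lowest library, at 38.9%, lies above the highest of CK, at 38.6%.

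Single miRNAs were tested in 1 fit over all 651 listed miRNAs with at least 10 counts and at least 3 libraries counted, of which 233 were predicted. The call was a p under 0.05 by edgeR's quasi-likelihood test after Benjamini-Hochberg adjustment over all 651, and an absolute log2 fold change above 1. By it 0 predicted miRNAs were called in X1D10, X1D20 or X1D30 against CK, in X1D20 or X1D30 against X1D10, in X1D30 against X1D20, or over the 4 groups together. Of all miRNAs tested, 0% were called in each of these. The 3 comparisons against CK use the same CK libraries, and the comparisons between treated groups reuse those of X1D10 and X1D20.

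At an unadjusted p under 0.05 the share of predicted miRNAs that passed was below that of all miRNAs tested in each comparison. In X1D10 against CK 9 of 233 passed (3.86%), against 7.68% of all miRNAs tested. In X1D20 against CK 12 passed (5.15%), against 5.99% of all. In X1D30 against CK 4 passed (1.72%), against 9.83% of all.

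Between treated groups 12 passed in X1D20 against X1D10 (5.15%, against 8.76% of all). In X1D30 against X1D10 11 passed (4.72%, against 14.3% of all), and in X1D30 against X1D20 6 passed (2.58%, against 8.76% of all). Over the 4 groups together 7 passed (3.00%, against 13.5% of all). DESeq2 called 1 predicted miRNA in X1D10 against CK, in X1D20 against X1D10 and over the 4 groups, each time m0121-5p, and 0 in the other comparisons.

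The median log2 fold change of the 233 predicted miRNAs was -0.02 in X1D10, 0.05 in X1D20 and 0.01 in X1D30 against CK. The medians over all miRNAs tested were 0.04, 0.01 and 0.09. The predicted miRNAs had no common shift, and 110 had a higher and 122 a lower fitted level in X1D10 than in CK, 123 a higher and 109 a lower one in X1D20, and 120 a higher and 111 a lower one in X1D30.

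**Figure D4:**
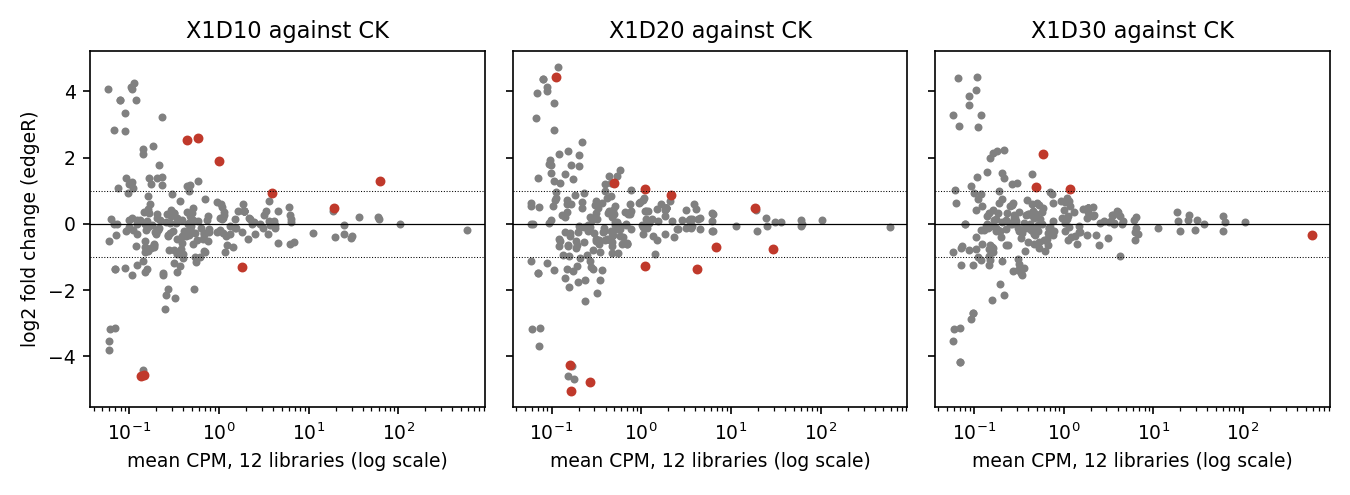
Log2 fold change of the 233 tested predicted miRNAs in X1D10, X1D20 and X1D30 against CK (edgeR), against their mean CPM (log scale); red points have an unadjusted p under 0.05 and dotted lines mark a log2 fold change of 1 and -1. The widest fold changes lie among the rarest entries, and no point passed the adjusted threshold.

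m0021-3p, the longer form of miR-71-y, had the smallest p of the predicted miRNAs in X1D30 against CK. It had 446, 539 and 559 CPM in X1D30, against 710, 586 and 655 CPM in CK. The 3 X1D30 libraries all lay below the 3 CK libraries, with a log2 fold change of -0.34 (SE 0.14, adjusted p = 0.464, edgeR's quasi-likelihood test). In order of time the group means were 650 ± 62.4 CPM in CK, 567 ± 71.0 in X1D10, 605 ± 28.7 in X1D20 and 515 ± 60.0 in X1D30 (SD, n = 3 each). miR-71-y had a log2 fold change of -0.45 in X1D30 against CK (adjusted p = 0.660, edgeR's quasi-likelihood test). Groups that did not overlap, with X1D30 lower than CK, were found for 11 of the 233 predicted miRNAs and for 6.76% of all miRNAs tested. With X1D30 higher they were found for 16 and 5.99%.

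m0121-5p, which has no listed relative, was highest in X1D10. It had 59.9, 202 and 70.2 CPM in X1D10, against 43.7, 53.1 and 39.1 CPM in CK. All 3 X1D10 libraries lay above CK, and X1D10-2 lay far above the rest, with 2461 counts. The log2 fold change was 1.29 (SE 0.39, adjusted p = 0.395, edgeR's quasi-likelihood test). Without X1D10-2 it was 0.52. DESeq2 gave 1.25 with an adjusted p of 0.0286. At the later times the level was 45.6 ± 0.933 CPM in X1D20 and 47.5 ± 5.16 CPM in X1D30, close to the 45.3 ± 7.10 CPM of CK (SD, n = 3 each). X1D20 was lower than X1D10 without overlap for 9 of the 233 predicted miRNAs and for 7.68% of all miRNAs tested, and higher for 15 and 4.3%. Against X1D10 the log2 fold change was -1.28 in X1D20 and -1.22 in X1D30, or -0.51 and -0.45 without X1D10-2.

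m0131-3p, a form of miR-7-y that started 3 bases upstream, was lowest in X1D10. It had 0.634, 1.40 and 0.891 CPM in X1D10, against 2.35, 2.91 and 2.03 CPM in CK. The X1D10 libraries all lay below those of CK, on 9 to 17 counts a library, with a log2 fold change of -1.32 (SE 0.39, adjusted p = 0.395, edgeR's quasi-likelihood test). miR-7-y itself had -0.56, and the summed counts of both had -0.70. miR-7-5p, the eye marker from the other arm of miR-7, averaged 1930 TPM in X1D10 and 2897 TPM in CK, and its part in the lower level of m0131-3p was not tested. X1D10 was lower than CK without overlap for 10 of the 233 predicted miRNAs and for 5.22% of all miRNAs tested, and higher for 8 and 5.53%.

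m0184-5p is the arm opposite m0184-3p, the longer form of miR-87-3p. It had 2.26, 3.08 and 1.57 CPM in X1D20, against 6.16, 7.31 and 4.56 CPM in CK. The X1D20 libraries all lay below those of CK, with a log2 fold change of -1.37 (SE 0.45, adjusted p = 0.668, edgeR's quasi-likelihood test). Fitted on these 2 groups alone the same test gave an adjusted p of 0.0342. edgeR's classic exact test, on the 2 groups alone and without the filter on low counts, gave 0.00720. X1D20 was lower than CK without overlap for 13 of the 233 predicted miRNAs and for 8.45% of all miRNAs tested, and higher for 17 and 6.3%.

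At the other times m0184-5p had 8.53, 5.75 and 2.38 CPM in X1D10 and 3.26, 3.78 and 2.16 CPM in X1D30. The X1D10 libraries spanned almost the whole range, and those of X1D30 lay below CK. The opposite arm m0184-3p had a log2 fold change of -0.40 in X1D20 against CK, and the known miR-87-3p had 0.14. The libraries also fell into 2 kinds by their share of high-quality reads, of which X1D10-1, X1D30-1, X1D30-2, CK-2 and CK-3 were of the lower kind and no X1D20 library was. With this kind as a term the log2 fold change of m0184-5p in X1D20 against CK was -1.01 (adjusted p = 0.978, edgeR's quasi-likelihood test).

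m0194-5p was rare in every library. It had 11, 9 and 8 counts in X1D30, against 0, 0 and 0 in X1D20. It was at least 2.27-fold higher in X1D30, set against a floor of 3 counts in each X1D20 library. It had 2, 0 and 5 counts in X1D10 and 0, 8 and 2 in CK, so that it was also at 0 in 1 library of each of these groups. The adjusted p for X1D30 against X1D20 was 0.377 by edgeR's quasi-likelihood test and 0.0228 by edgeR's classic exact test on these 2 groups alone without the filter on low counts.

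m0088-5p had the smallest p of all predicted miRNAs in any of the 6 comparisons. It had 3.20, 1.41 and 1.84 CPM in X1D30, against 0.775, 0.328 and 0.594 CPM in X1D10. The groups did not overlap, with a log2 fold change of 1.90 (SE 0.50, adjusted p = 0.276, edgeR's quasi-likelihood test). In CK it had 1.01, 0.672 and 1.40 CPM, with a mean of 1.03 CPM that lay between the groups and with CK-2 inside the range of X1D10. Such separation, with X1D30 higher than X1D10, was found for 16 of the 233 predicted miRNAs and for 6.76% of all miRNAs tested, and with X1D30 lower for 9 and 6.91%.

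**Figure D5:**
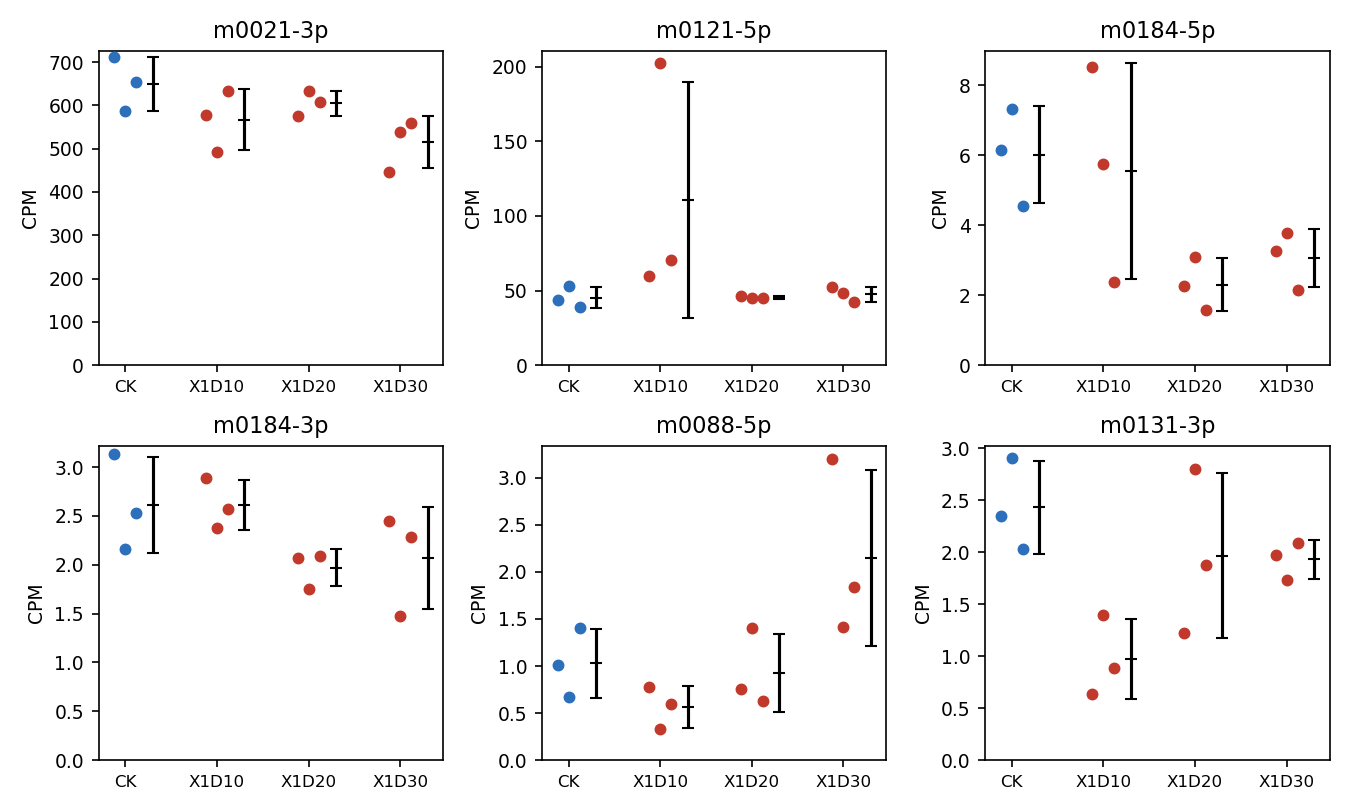
CPM of 6 predicted miRNAs in the 12 libraries by group, with the mean and SD of each group (n = 3). m0121-5p is raised by X1D10-2 at 202 CPM, and the X1D20 libraries of m0184-5p, at 1.57 to 3.08 CPM, lie below those of CK.

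The entries that matched miR-281 on either strand are set side by side here. The level of miR-281-3p was 36.2, 112 and 70.4 CPM in X1D10, against 22.06, 20.97 and 15.71 CPM in CK. All X1D10 libraries lay above CK (log2 fold change 1.90, adjusted p = 0.319, edgeR's quasi-likelihood test). Its antisense match m0010-5p had 3.74, 3.86 and 2.48 CPM in X1D10, against 1.90, 2.99 and 3.44 CPM in CK.

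The m0010-5p groups overlapped, with a log2 fold change of 0.27 (SE 0.30). On the other arm miR-281-x had a log2 fold change of 1.55 in X1D10 against CK. Its antisense match m0010-3p had 0, 2 and 4 counts in X1D10, against 8, 14 and 3 counts in CK, with a log2 fold change of -1.96 (SE 0.97, adjusted p = 0.647, edgeR's quasi-likelihood test). None of these passed the threshold, and the difference between the strands was not tested.

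Most other abundant predicted miRNAs had small fold changes. m0200-5p, the miR-79 form, had 101 ± 10.4 CPM in X1D10, 110 ± 15.6 in X1D20 and 105 ± 4.90 in X1D30, against 101 ± 7.39 in CK (SD, n = 3 each). m0085-5p and m0201-5p, with 9171 and 9311 counts and no listed relative, had log2 fold changes of 0.14 and 0.21 in X1D10, 0.12 and -0.07 in X1D20, and -0.21 and 0.22 in X1D30, each against CK. m0061-5p had 0.20, 0.07 and -0.0049 at these times and m0037-5p -0.05, 0.19 and 0.12.

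Of the top 10, m0007-3p, m0061-5p, m0082-5p and m0146-5p also had a treated group that did not overlap with CK. Over all miRNAs tested, X1D10 was lower than CK without overlap for 5.22% and higher for 5.53%. X1D20 was lower for 8.45% and higher for 6.3%, and X1D30 lower for 6.76% and higher for 5.99%. The share of all miRNAs with any such group was not counted. It is at least the lower and the higher share of X1D20 added together, since no miRNA can be both, and may be larger. The number of top entries with such a group therefore cannot be set against any single share given here. m0061-5p had 41.2, 39.6 and 38.9 CPM in X1D10, against 37.2, 33.7 and 33.4 CPM in CK. m0007-3p had 26.0, 19.7 and 26.7 CPM in X1D10, against 29.01, 35.08 and 30.30 CPM in CK (log2 fold change -0.38, SE 0.19). m0061-5p was higher than CK, and the other 3 were lower. m0146-5p had 23.9, 14.8 and 22.3 CPM in X1D10, against 24.4, 24.5 and 26.4 CPM in CK (log2 fold change -0.30, SE 0.25). m0082-5p, the miR-34 form, had 24.5, 19.8 and 20.1 CPM in X1D20, against 34.7, 41.7 and 33.2 CPM in CK.

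The log2 fold change of m0082-5p was -0.77 (SE 0.33, adjusted p = 0.772, edgeR's quasi-likelihood test). miR-34-5p had 0.16 in the same comparison and miR-34-x, which differed from m0082-5p by 1 base, had -0.66. m0082-5p was highest in X1D30-1, X1D10-1 and CK-2, at 43.7, 42.1 and 41.7 CPM, all of the lower read-quality kind. The other libraries of that kind, CK-3 and X1D30-2, had 33.2 and 26.6 CPM. The fold change of m0082-5p with this kind as a term is not reported here.

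Among the rarer entries with the smallest p, m0016-5p had 14, 27 and 11 counts in X1D20, against 6, 6 and 14 in CK. Its CPM values did not overlap, with a log2 fold change of 1.05 (SE 0.37, adjusted p = 0.732, edgeR's quasi-likelihood test). m0015-3p had 13, 9 and 8 counts in X1D30, against 2, 4 and 5 in CK, a log2 fold change of 1.12 (SE 0.50). m0149-3p had 3, 7 and 23 counts in X1D30, against 0, 2 and 4 in CK, and the groups overlapped. m0033-5p had 4, 8 and 7 counts in X1D30, against 0, 2 and 0 in X1D10.

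Presence in all 3 libraries of one group with absence from all 3 of another was rare. In X1D20 against CK m0189-5p was found only on the X1D20 side, and m0182-5p and m0039-3p only on the CK side, which is 1 and 2 of the 236 predicted miRNAs with at least 10 counts. The same held for 0.254% and 0.635% of all miRNAs with at least 10 counts. m0105-5p was counted in CK and not in X1D10, and m0054-5p in X1D30 and not in CK, where 0.381% and 1.02% of all miRNAs were. m0105-5p had 0, 0 and 0 counts in X1D10, against 2, 3 and 3 in CK, and 2, 5 and 3 in X1D20. Presence in X1D20 with absence from X1D10 was found for 1 predicted miRNA, m0105-5p itself, and for 0.127% of all.

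Between treated groups m0053-5p had 0, 0 and 0 counts in X1D20, against 4, 3 and 2 in X1D10, and 4, 5 and 2 in X1D30. Presence in X1D30 with absence from X1D20 was found for 2 predicted miRNAs, m0053-5p and m0194-5p, and for 1.14% of all, and presence in X1D10 with absence from X1D20 for 1, m0053-5p, and for 0.635%. m0123-5p, m0058-3p and m0028-3p were counted in X1D20 and not in X1D30, and m0139-3p and m0054-5p in X1D30 and not in X1D10. The shares of all miRNAs were 0.381% and 1.02%. The counts of m0105-5p, m0053-5p, m0123-5p, m0058-3p and m0028-3p were at most 5 in any library, so at this depth a count of 0 does not show absence.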

How the data were processed

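The authors removed low-quality reads, short inserts and tags read once, removed other small RNAs, and assigned tags with Bowtie to known honeybee miRNAs and to miRBase entries of other species. Remaining tags were predicted with MIREAP from genome position and hairpin structure. The authors deposited raw read counts per miRNA, the values tested here. They also deposited TPM, scaled by a total that exceeded the listed sum in each library, with 0.01 in place of 0. The deposited length column gives nt. Reads were not reprocessed, and no genome was used, so positions are those of RefSeq miRNA genes (Amel_HAv3.1, the authors' build). Targets and qRT-PCR were not analysed here.

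Groups follow the sample titles. Counts were fitted with edgeR 4.0.16 in R 4.3.3 (TMM, quasi-likelihood) in 1 fit of 12 libraries and 4 groups. Entries with under 10 counts or under 3 libraries counted were left out, 13 predicted ones among them. CPM values are scaled by TMM. The SE of a log2 fold change is its size over the root of the F statistic. Class measures used exact permutation tests (Python 3.11.15, scipy 1.17.1), and pairing energies RNAduplex of ViennaRNA 2.7.2. DESeq2 1.42.0, other scalings and filters, a replicate block, a read-quality term (kinds from the study's supplementary read statistics, split at a gap in the share of high-quality reads) and leaving out each library were alternatives. Tested on simulated counts for X1D20 against CK with 200 of 651 entries at 4-fold, edgeR recovered 73 with 2 false calls (16 of the 75 simulated predicted entries, and 62 of the 123 with at least 100 counts). Recovery where fewer entries change was not simulated and may be lower.

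Members, lists and tests were chosen with earlier results of these data known. Named were the 10 entries with the highest mean CPM, the 3 with the smallest p in each comparison, m0184-5p and m0194-5p, which the paper lists, the 6 two-armed hairpins with the most counts, entries counted in all libraries of one group and none of another, and entries with the seed of a known miRNA; others named were chosen after their values were seen. Floors of 3 counts cover counting error only. Whether same-numbered libraries came from the same colony is not stated in the sources used here, and the main fit did not pair them. The deviations of 18 same-numbered pairs correlated at -0.20 to 0.31, 4 of them over 0.1. Those of 36 other pairs correlated at -0.29 to 0.27, 9 of them over 0.1. Such correlations cannot exclude a pairing by colony.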

Additional observations from a re-analysis of the deposited data

How the results depend on the processing

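The number of predicted miRNAs called was 0 in each of the 6 comparisons and over the 4 groups, and was also 0 with other scalings (RLE size factors, listed totals, totals recovered from TPM), other filters, a robust spread, near-identical entries summed, read-quality kind as a term and each library left out in turn (0 to 0). With a replicate block it was 0 in every comparison as well. DESeq2 called 1 in X1D10 against CK, 1 in X1D20 against X1D10 and 1 over the 4 groups, each time m0121-5p. edgeR's classic exact test, on the 2 groups only and with no filter, called 1 in X1D20 against CK (m0184-5p) and 1 in X1D30 against X1D20 (m0194-5p), and the quasi-likelihood test on the 2 groups only called 1 in X1D20 against CK (m0184-5p). The classic test changed the test, the libraries fitted and the filter together, and the cause was not tested. With near-identical entries summed, m0131-3p together with miR-7-y had a log2 fold change of -0.70 in X1D10 against CK, compared with -1.32 alone. At an unadjusted p under 0.05 the counts over all alternatives ran from 6 to 15 in X1D10, 5 to 15 in X1D20 and 0 to 6 in X1D30 against CK.

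Of the class measures, the share of counts on predicted miRNAs, -0.00860 percentage points in treated minus CK libraries, was 0.00185 without m0021-3p. With each library left out it ran from -0.0150 to -0.00279, and without CK-2, where it was -0.0150, the exact permutation p was 0.0182. The difference in the number counted at equal depth, -1.90, was 3.89 when an entry needed 10 counts in a library, and ran from -10.2 to 2.11 with each library left out (1.34 without CK-2 and 2.11 without CK-3). That in the 5p share ran from 3.35 to 5.35 percentage points and that in mean length from -0.0276 to -0.0106 nt. The number of predicted miRNAs overlapping a listed one was 38 by the rule used and 34 by the stricter one, and 7 by both on the opposite strand. Depth limits single entries: the median predicted miRNA had 54 counts over 12 libraries.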
